A study of Mus musculus with 38 samples.

Results

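Dermal P1 and P2 are neighbouring gates of Ly6C-high monocyte-like cells in mouse ear skin, and their RNA was compared at steady state on 6 arrays, 3 of each, out of 38 arrays in 13 groups. The members were chosen by title, as the wild-type dermal P1 and dermal P2 samples from untreated animals, and their log2 intensities were read for 19937 genes, 1 probe set per gene. The P1 gate took live cells that were CD11b+ and CD24-, then Ly6Chigh, CCR2+ and MHCII- with CD64low staining. P2 had the same gate except that its cells were CD64+ and MHCII+. All mice were female C57BL/6, wild type and 6 weeks old, and the arrays of a group came from independent pools of mice. The same 2 gates were also sorted 3 days after 0.5% DNFB (2,4-dinitrofluorobenzene, a contact sensitiser) was put on the ear, with 2 arrays of P1 and 3 of P2. A gate holds whatever cells meet its surface markers, so each array averages over a sorted pool. A lower level in a pool can come from fewer cells carrying a transcript or from less of it per cell, and these cannot be told apart.

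Ly6C-high monocytes leave the blood through CCR2 and enter the skin, where some acquire class II molecules of the major histocompatibility complex (MHC), which show peptides to CD4 T cells. Skin monocytes can take on features of macrophages, such as C1q and scavenger receptors, or of dendritic cells (DC), such as CD11c and CCR7. The cytokines IL-4 and IL-13 drive a type 2 programme in such cells through STAT6, with Retnla, Mgl2, Ccl17 and Ccl22 among its well known genes.

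The 6 arrays had medians between 4.39 and 4.65 on the log2 scale. Correlation between replicates lay between 0.947 and 0.967 in P1 and between 0.965 and 0.977 in P2. There are no detection calls, so a level under 4.02, the 40th percentile of all values, is treated here as low signal, and a fold that starts near it has no exact size. The labelled cell type could be checked on myeloid genes only in part. Lyz2 (lysozyme) read from 12.92 to 13.06 in P1 and from 12.70 to 12.96 in P2, Csf1r (the M-CSF receptor) from 10.68 to 10.74 and from 10.37 to 11.03, and Ccr2 from 10.06 to 10.23 and from 10.23 to 10.83. By mean level these 3 genes stood at 12.77, 10.08 and 10.32 in dermal DC, so they do not tell P1 and P2 from other dermal myeloid cells. The Ly6C genes were not read, as their probe sets carry several symbols. Fcgr1, which encodes the sort marker CD64, read 7.94, 7.70 and 8.50 in P1 and 8.81, 7.66 and 7.49 in P2. Its groups overlapped although the gates differ in surface CD64 (adjusted p = 0.98). Itgam (CD11b) overlapped as well (adjusted p = 0.51), and so did Cd24a (adjusted p = 0.98), at 8.63 to 9.35 over all 6 arrays from cells sorted as CD24-. Fibroblast RNA set 1 array apart. Dcn (decorin) read 12.45 in P1 replicate 2 against 10.13 to 11.62 in the other 5 arrays, and Mfap5 read 10.85 there against 4.75 and 4.77 in the other P1 arrays.

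P2 differed from P1 at 416 genes, with more of them higher than lower. In limma with Benjamini-Hochberg adjustment, 416 of 19937 genes passed an adjusted p under 0.05 (2.09% of genes), of which 268 were higher in P2 (1.34%) and 148 lower (0.742%). A gene is said below to be higher, lower, risen or fallen in P2 only where it passed this test. The median difference over all genes was -0.02 on the log2 scale. Among the genes called, 189 were at least 2-fold higher and 91 at least 2-fold lower, 51 and 22 were past 4-fold, and 7 and 1 were past 16-fold. The typical called gene moved less, with a median fold of 2.40 for the rises and 2.25 for the falls. The 3 P2 arrays lay entirely on one side of the 3 P1 arrays for 394 of the 416 genes, beside 11.3% of all genes. Fewer genes were called when the variance came only from the 2 groups compared (62) or when a change of at least 2-fold was tested (41). The rises fell to 163 without P2 replicate 1 and to 164 without P1 replicate 3, and the falls to 78 without P2 replicate 3.

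**Figure D1:**
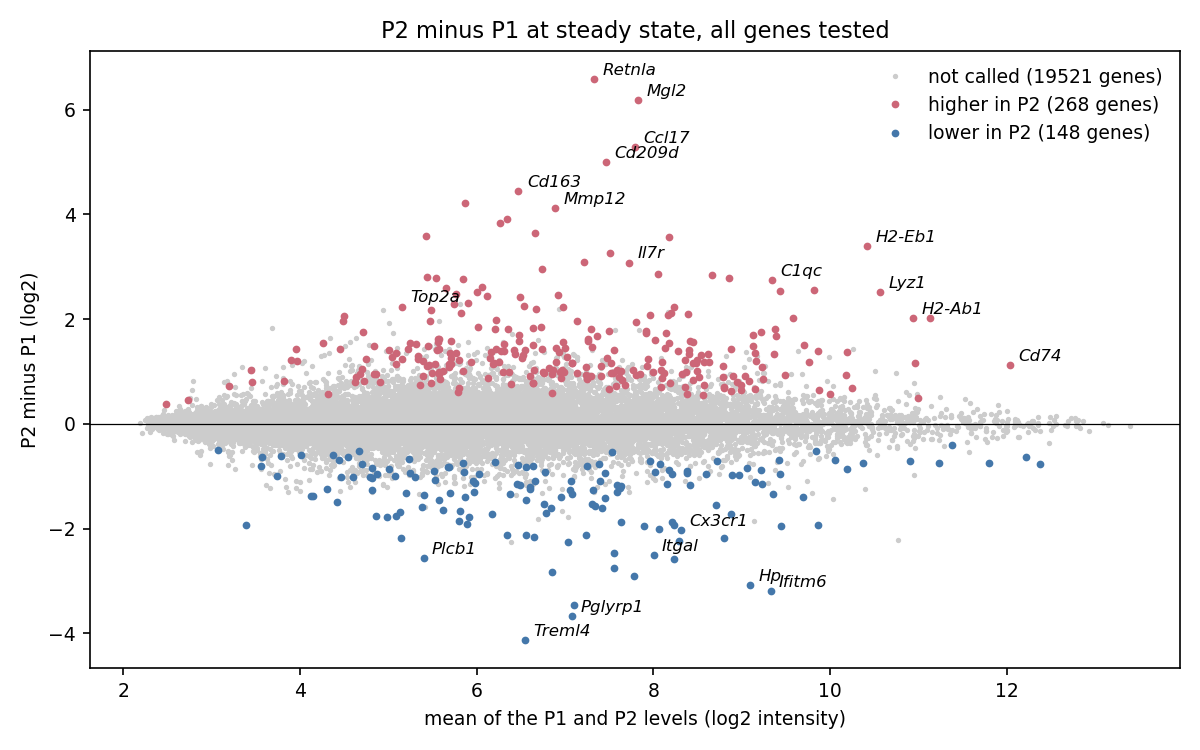
Difference between P2 and P1 at steady state (vertical axis, log2) against the mean level of the gene in both (horizontal axis, log2 intensity), with 1 point per gene and called genes coloured. Retnla, Mgl2 and Ccl17 lie farthest up, Treml4 and Pglyrp1 farthest down, and Cd74 is the called gene of the class II list with the highest mean level.

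Gene lists describe both directions, and some genes sit on several lists, such as Ccl17 and Mrc1. Rises prevailed among type 2 genes, C-type lectins, class II genes, resident macrophage genes and complement. Falls prevailed among genes of non-classical and classical monocytes and among pattern recognition receptors. Each list is given by its count of called members, beside the 1.34% and 0.742% of all genes called in each direction, and by its median difference, beside -0.02. The lists were chosen with earlier results of these data known, and all genes include many at low signal. A list share above that of all genes is therefore a description and not a test of enrichment.

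**Figure D2:**
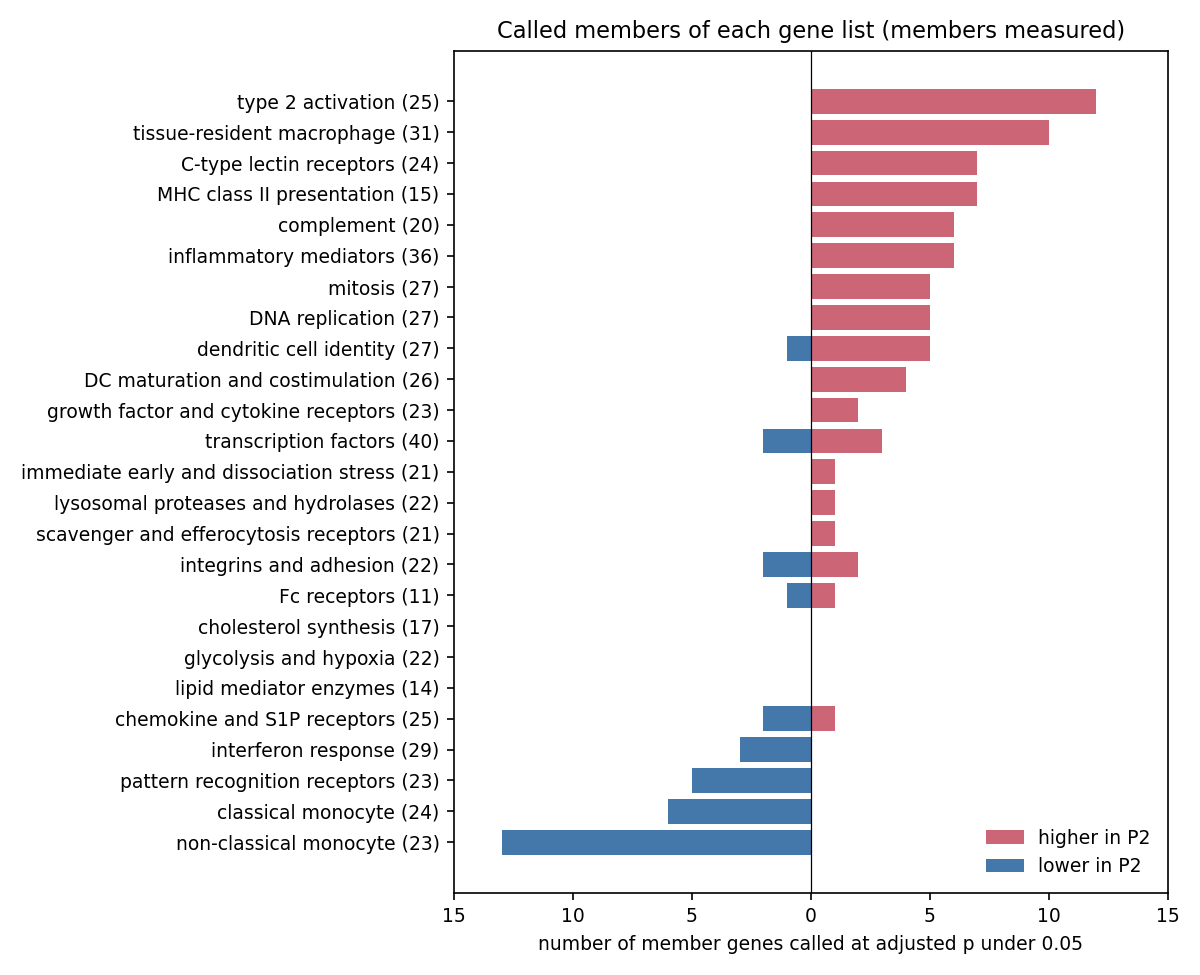
Number of called genes (horizontal axis, adjusted p under 0.05) in each list of genes of the cells under study, with the number of measured members in parentheses. Bars to the right count members higher in P2 and bars to the left members lower in P2, from 12 rises on the type 2 list to 13 falls on the non-classical monocyte list.

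Class II genes were higher in P2, which follows the sort on surface MHC II and is a check of the gate rather than a finding. Of 15 measured members of the class II presentation list, 7 were higher and 0 lower, with a median difference of 0.95. H2-Eb1, a beta chain of the class II heterodimer, read 8.79, 8.62 and 8.73 in P1 and 12.14, 12.02 and 12.20 in P2. The arrays of a gate stayed close to each other, and P2 was 10.6-fold higher (log2 difference 3.40, SE 0.13, adjusted p = 5.1e-17). H2-Aa and H2-Ab1, the alpha and beta chains of the other class II molecule, were 4.04-fold and 4.05-fold higher. P1 was far from empty of these transcripts. H2-Aa read 10.40, 10.26 and 9.71 in P1, and Cd74, the invariant chain, read 11.37, 11.63 and 11.43, so that its rise in P2 was 2.17-fold. Ciita, the coactivator that switches class II genes on, read 5.60, 5.09 and 5.81 in P1 and 6.86, 6.74 and 7.19 in P2 (2.69-fold, adjusted p = 0.0022). H2-DMa, which helps load peptide, was 2.25-fold higher. H2-Ob, part of the complex that restrains loading, was 2.56-fold higher, a call lost without P2 replicate 3 (adjusted p = 0.085). The subunits of RFX, the complex that recruits Ciita to class II promoters, were not called: Rfx5 differed by 0.15, Rfxank by 0.02 and Rfxap by -0.47. Ctss, the protease that trims the invariant chain, stood at 11.44 to 11.76 in P1 and 11.39 to 11.64 in P2 and did not pass.

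The promoters of H2-Eb1, the class II gene with the largest rise, and of H2-Aa are shown because class II transcription is known to use a shared set of upstream boxes, of which the Y box is a CCAAT motif read on the opposite strand. The sequences are RefSeq's, build GRCm38.p6, 250 bases before to 50 after the start, printed in the direction of the gene, and capitals mark CCAAT or its reverse complement ATTGG.
H2-Eb1 (chr17:34305617-34305916, plus strand): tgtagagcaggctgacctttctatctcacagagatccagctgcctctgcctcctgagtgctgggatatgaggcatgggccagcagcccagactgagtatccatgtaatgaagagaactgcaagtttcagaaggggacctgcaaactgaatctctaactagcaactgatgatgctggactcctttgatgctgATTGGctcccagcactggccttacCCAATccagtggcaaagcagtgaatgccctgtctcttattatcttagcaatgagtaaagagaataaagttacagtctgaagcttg
H2-Aa (chr17:34287774-34288073, minus strand): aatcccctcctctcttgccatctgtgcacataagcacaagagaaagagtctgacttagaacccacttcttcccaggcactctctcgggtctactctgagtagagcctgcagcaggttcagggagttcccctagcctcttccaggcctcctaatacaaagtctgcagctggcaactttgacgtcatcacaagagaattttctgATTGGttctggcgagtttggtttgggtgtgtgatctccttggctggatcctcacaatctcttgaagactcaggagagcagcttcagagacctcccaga
Counted from the start, ATTGG begins at -59 in H2-Eb1 and at -48 in H2-Aa, and H2-Eb1 holds a CCAAT at -35 as well. On either strand, CCAAT was in 7 of the 11 class II list promoters in the RefSeq table, against 5969 of 15613 promoters of genes tested (38.2%). All 3 motif searches reported here give matches of letters and not binding sites.

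Type 2 genes held the largest rises of the comparison. Of 25 measured members 12 were higher and 0 lower, with a median difference of 1.10, and 23 of 25 differences were above 0. Retnla, which encodes the secreted protein RELM-alpha, read 3.36, 3.65 and 5.10 in P1 and 11.01, 10.67 and 10.23 in P2. P1 lay near the low-signal level and P2 among bright genes, 96.6-fold apart (log2 difference 6.59, SE 0.45, adjusted p = 4.6e-11). Mgl2 (CD301b), a lectin that binds galactose-type sugars, read 4.87, 5.68 and 3.65 in P1 and 11.36, 10.74 and 10.66 in P2, a 72.7-fold difference (adjusted p = 9.3e-13). Its neighbour Clec10a (CD301a) was 12.5-fold higher. The chemokine Ccl17, a ligand of CCR4, read 4.60, 5.93 and 4.94 in P1 and 10.58, 10.91 and 9.81 in P2 (38.8-fold, adjusted p = 9.3e-13). Ccl22, the other CCR4 ligand, read 4.52, 4.12 and 4.40 and then 8.29, 7.84 and 8.45 (14.4-fold). Ccl24, an eosinophil attractant, was 4.72-fold higher. For none of these genes did any P1 array reach any P2 array. Mmp12, the macrophage elastase, was 17.4-fold higher, with P2 replicate 2 at 10.20 above the other P2 arrays at 8.36 and 8.30. Mrc1 (CD206) was 5.82-fold higher, Il1rn (the IL-1 receptor antagonist) 2.98-fold, Egr2 2.57-fold and Irf4 3.60-fold. Cish, a target of STAT signalling, was 2.15-fold higher, but all 6 fits that left out 1 array lost this call (adjusted p up to 0.24, without P1 replicate 3). The receptor side was level or close to it: Il4ra differed by 0.37, Il13ra1 by 0.03 and Stat6 by 0.20, none of them called. Arg1 and Chil3 are often listed with this programme. Arg1 stood between 4.00 and 4.28 in all 6 arrays. Chil3 read 10.90, 10.95 and 10.43 in P1 and 9.64, 8.95 and 9.35 in P2, lower in every P2 array without passing the test (adjusted p = 0.20).

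The promoters of Retnla and Ccl17 are shown as those of the secreted products with the largest rises. Capitals mark a match to TTC, any 4 bases, then GAA, the palindrome that STAT6 is known to bind.
Retnla (chr16:48842359-48842658, plus strand): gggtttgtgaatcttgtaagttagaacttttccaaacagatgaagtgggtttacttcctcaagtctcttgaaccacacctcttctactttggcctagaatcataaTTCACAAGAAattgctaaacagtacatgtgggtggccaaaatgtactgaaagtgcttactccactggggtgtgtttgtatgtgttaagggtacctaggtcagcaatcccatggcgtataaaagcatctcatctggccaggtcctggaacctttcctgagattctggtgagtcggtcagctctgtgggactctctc
Ccl17 (chr8:94810203-94810502, plus strand): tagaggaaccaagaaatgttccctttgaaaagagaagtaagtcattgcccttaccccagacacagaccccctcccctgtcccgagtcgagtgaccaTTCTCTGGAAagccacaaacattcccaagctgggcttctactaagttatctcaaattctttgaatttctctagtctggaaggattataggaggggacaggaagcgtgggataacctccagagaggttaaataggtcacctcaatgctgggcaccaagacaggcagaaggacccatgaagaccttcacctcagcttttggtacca
The match TTCACAAGAA begins at -145 in Retnla and TTCTCTGGAA at -154 in Ccl17. The palindrome was in 3 of 20 promoters of the type 2 list, in 16 of 218 of the risen genes and in 972 of 15613 of the genes tested (6.23%).

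C-type lectin receptors, which recognise sugars on microbes and on self glycoproteins, were higher in P2 at 7 of 24 members and lower at 0 (median difference 0.60). The DC-SIGN family showed a range. Cd209d read 4.30, 5.84 and 4.76 in P1 and 10.12, 9.51 and 10.26 in P2 (32.0-fold, adjusted p = 1e-07). Cd209a started higher, at 6.34, 6.03 and 6.82, and reached 10.09, 9.72 and 10.08 (11.9-fold, adjusted p = 1.6e-09). Cd209c was 4.51-fold higher, a call lost in 5 of the 6 fits without 1 array (adjusted p up to 0.21, without P2 replicate 3). Cd209e had the same fold, 4.51, and did not pass (adjusted p = 0.052), and Cd209b, Cd209f and Cd209g did not pass either. Probe sets of such similar genes can take up each other's RNA, which was not tested. Clec4b1, of the Dcir and Dcar cluster, was 4.73-fold higher.

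Resident macrophage genes were higher in P2 at 10 of 31 members and lower at 0, with a median difference of 0.95. Cd163, the haemoglobin scavenger receptor, read 4.27, 4.32 and 4.15 in P1 and 9.33, 8.52 and 8.24 in P2 (21.9-fold, adjusted p = 5.1e-10). Fcrls, an Fc receptor-like scavenger molecule, read 3.54, 3.52 and 4.21 and then 8.42, 7.80 and 7.71 (18.7-fold from a low-signal level). C1qa, which encodes a chain of the complement component C1q, read 6.12, 5.81 and 5.71 and then 10.14, 8.88 and 8.43 (9.65-fold, adjusted p = 1e-06). C1qb was 6.94-fold and C1qc 6.68-fold higher. Cd163 and Fcrls were not particular to macrophages here. By mean level they stood at 10.14 and 9.81 in dermal DC, against 10.68 and 9.11 in the MHCII- macrophages (P4). The C1q chains were lower in dermal DC, with C1qa at 8.45 against 11.70 in P4. Within P2 these genes were not even. P2 replicate 1 had the highest level of Cd163, Fcrls and C1qa, and the mean level of the list was 8.71 there against 7.67 and 7.18 in the other P2 arrays and 6.44 to 6.85 in P1. Pf4 was 4.07-fold higher, with a P2 replicate 1 at 11.63, and lost its call in 2 of the 6 fits without 1 array (adjusted p up to 0.14, without that array). Igf1 was 3.33-fold higher, but its groups overlapped, with P1 replicate 2 at 8.29 and P2 replicate 3 at 7.97, and it lost its call in 4 of the 6 fits (adjusted p up to 0.27, without P2 replicate 1). Between 7 and 11 members were called higher when 1 array was left out, with 7 without P2 replicate 1. Lyve1 and Folr2, markers of long-lived tissue macrophages, were high in P2 replicate 1. Lyve1 read 7.45, 5.30 and 4.62 in P2 and Folr2 7.11, 5.26 and 4.30, with P1 at 4.26 to 4.76, and neither passed.

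Complement genes beyond C1q followed in part. On the complement list 6 of 20 members were higher and 0 lower, while the median difference was only 0.05. C3ar1, the receptor of the C3a fragment, was 3.53-fold higher and Cfp (properdin) 2.63-fold. Of 21 scavenger and efferocytosis receptors Cd163 was the one called. Mertk, the receptor for dying cells, read 6.17, 4.94 and 4.26 in P2 against 4.05 to 4.34 in P1 and did not pass (adjusted p = 0.50). Msr1 differed by -0.75 (adjusted p = 0.29). Of 22 lysosomal genes 1 was called, the cholesterol exporter Npc1 at 1.87-fold, lost in 5 of the 6 fits without 1 array (adjusted p up to 0.20, without P2 replicate 1).

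Genes used to identify dendritic cells moved less evenly, with 5 of 27 higher and 1 lower (median difference 0.14). Itgax, which encodes CD11c, read 5.28, 5.48 and 5.07 in P1 and 7.91, 7.79 and 7.39 in P2 (5.35-fold, adjusted p = 1.4e-09). Ccr7, the receptor that guides cells to lymph nodes, read 7.04, 7.22 and 6.82 and then 8.72, 9.12 and 8.57 (3.42-fold, adjusted p = 0.00011). The P2 arrays lay above all P1 arrays for both. Irf4, a transcription factor of CD11b+ DC and of type 2 responses, read 5.67, 5.21 and 6.53 and then 8.19, 7.03 and 7.73 (3.60-fold, adjusted p = 0.00015). Irf8 went the other way at 2.13-fold lower, a call lost without P2 replicate 3 (adjusted p = 0.11) and without P1 replicate 3. Flt3, the growth factor receptor of DC precursors, was 2.42-fold higher and lost its call in 5 of the 6 fits without 1 array (adjusted p up to 0.16, without P1 replicate 2). Zbtb46, a factor largely restricted to conventional DC among immune cells, read 4.89, 5.31 and 5.27 in P1 and 5.29, 5.63 and 5.60 in P2 and was not called (adjusted p = 0.48). Most costimulatory genes were not called. Of 26 maturation genes 4 were higher and 0 lower, and of the 4, Ccl17, Ccl22 and Ccr7 are described above. Icam1, the adhesion ligand, was the other at 1.57-fold, lost in 5 of the 6 fits without 1 array (adjusted p up to 0.27, without P1 replicate 3). The costimulatory ligands Cd86, Cd40 and Cd80 differed by 0.37, 0.47 and 0.12 and were not called. Cd83 was already bright in P1, at 10.04 to 11.00, and differed by 0.78 (adjusted p = 0.14).

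**Figure D3:**
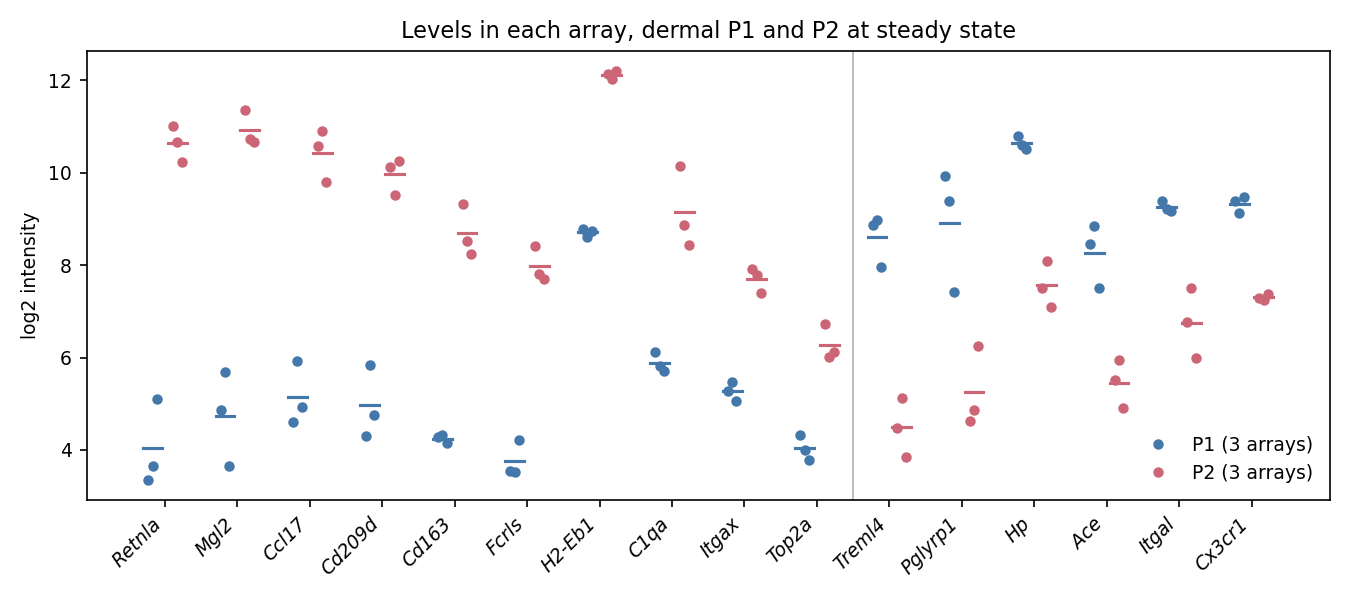
Levels (vertical axis, log2 intensity) of 10 genes higher in P2, left of the grey line, and 6 lower in P2, right of it, with 1 point per array and a bar at the mean of 3 arrays. P1 and P2 points do not overlap for any of the 16 genes, and P2 replicate 1, the leftmost P2 point, is highest for Cd163, Fcrls and C1qa.

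Some genes of the cell cycle were higher in P2. On the mitosis list 5 of 27 members were higher and 0 lower, the median difference was 0.44, and 26 of 27 differences were above 0. Much of this list was at low signal, with 13 of the 27 members under 4.02 by P1 mean and 7 by P2 mean. Top2a, a topoisomerase of dividing cells, read 4.33, 4.00 and 3.79 in P1 and 6.72, 6.01 and 6.11 in P2 (4.73-fold, adjusted p = 4.6e-07). Its P1 mean of 4.04 lay near the low-signal level, so the fold has no exact size. Top2a has 2 probe sets, of which the brighter was read. Over 17 alternative settings its log2 difference ran from 1.15 to 2.39, against 2.24 in the main fit, and its call was kept. Mki67, which encodes the proliferation antigen Ki-67, read 6.30, 6.68 and 6.38 and then 8.02, 8.02 and 8.20 (3.09-fold, adjusted p = 0.00012). Cdk1, the kinase that drives entry into mitosis, was 2.81-fold higher, from a P1 mean of 4.09 near the low-signal level. These stood apart between the gates in every array. Birc5 and Ccnb2 were 2.29-fold and 3.52-fold higher, with calls lost in 2 and 5 of the 6 fits without 1 array (adjusted p up to 0.10, without P2 replicate 1, and 0.12, without P2 replicate 3). The list's count was 3 without P1 replicate 2. On the DNA replication list 5 of 27 were higher and 0 lower, with a median of 0.53. Mcm3, a subunit of the replicative helicase, was 2.21-fold higher and kept its call without any 1 array. It lost the call when only the 2 compared groups were fitted (adjusted p = 0.40). Rrm2, which makes deoxynucleotides, was 2.66-fold higher and lost its call in 2 of the 6 fits (adjusted p up to 0.16, without P2 replicate 1). The count of called replication genes dropped to 1 without P1 replicate 1, to 2 without P2 replicate 3 and to 3 without P1 replicate 2, P1 replicate 3 or P2 replicate 1.

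The promoter of Top2a is shown because it holds 6 CCAAT motifs. Capitals mark these and TTTGAA or its reverse complement, the core of the cell cycle homology region known from genes of late cell cycle phases.
Top2a (chr11:99024140-99024439, minus strand): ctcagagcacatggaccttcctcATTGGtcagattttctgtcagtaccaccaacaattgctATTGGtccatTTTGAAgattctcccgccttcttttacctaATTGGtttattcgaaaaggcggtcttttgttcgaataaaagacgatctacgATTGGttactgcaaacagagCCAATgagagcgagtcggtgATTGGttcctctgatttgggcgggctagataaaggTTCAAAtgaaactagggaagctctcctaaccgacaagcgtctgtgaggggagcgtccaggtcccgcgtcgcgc
The CCAAT matches nearest to the start begin at -58 and -78, and the TTTGAA-type matches begin at -179 and -23. TTTGAA was in 17 of 23 promoters of the mitosis list and in 2368 of 15613 of the genes tested (15.2%), and CCAAT was in 16 of 23 and in 38.2% of the genes tested. Among all risen genes the shares were 12.8% for TTTGAA and 39.0% for CCAAT, near those of all genes tested.

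Of the 20 largest falls, 7 were on the monocyte lists: Treml4, Pglyrp1, Ifitm6, Hp, Ace, Itgal and Cd177. On the non-classical list 13 of 23 members were lower and 0 higher, with a median difference of -1.39. Treml4, a myeloid surface receptor, read 8.88, 8.98 and 7.95 in P1 and 4.48, 5.13 and 3.85 in P2 (17.3-fold lower, log2 difference -4.12, SE 0.33, adjusted p = 1.3e-09). Pglyrp1, a secreted peptidoglycan recognition protein, read 9.93, 9.39 and 7.41 and then 4.63, 4.87 and 6.24 (12.7-fold lower, adjusted p = 2.2e-06). The gates were closest in replicate 3 of each for this gene, and did not overlap. Its call was lost when only the 2 compared groups were fitted (adjusted p = 0.16). Ace, angiotensin-converting enzyme, read 8.46, 8.84 and 7.51 and then 5.51, 5.94 and 4.90 (7.05-fold lower). Itgal, the alpha chain of the LFA-1 integrin, was 5.68-fold lower at 9.17 to 9.39 in P1 against 5.98 to 7.50 in P2. Cx3cr1, the fractalkine receptor, read 9.39, 9.12 and 9.48 and then 7.29, 7.25 and 7.38 (4.07-fold lower, adjusted p = 1.2e-05). Spn (CD43) was 3.25-fold lower and Pou2f2 2.62-fold lower. Nr4a1, the nuclear receptor on which non-classical monocytes depend, differed by -0.60 and did not pass (adjusted p = 0.30). The number of falls on this list lay between 8 and 14 when 1 array was left out, with 8 without P1 replicate 2 or P2 replicate 3 and 14 without P1 replicate 3.

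Classical monocyte genes were lower at 6 of 24 members and higher at 0 (median difference -0.56). Hp (haptoglobin) read 10.80, 10.60 and 10.51 in P1 and 7.50, 8.10 and 7.10 in P2 (8.39-fold lower, adjusted p = 9.8e-08). Ifitm6, an interferon-induced membrane protein of myeloid cells, read 11.03, 11.14 and 10.60 and then 7.44, 8.04 and 7.71 (9.16-fold lower, adjusted p = 0.00032). Both were bright in P1 and clearly lower in every P2 array. Mmp8 (neutrophil collagenase) was 3.04-fold lower and Cd177 4.77-fold lower. Other genes of the same list were not called: Fn1 (fibronectin) differed by -0.09, and F13a1 (coagulation factor XIII) by -0.57, close to the list's median. Plac8 read 12.08, 11.86 and 11.72 in P1 and 9.88, 9.99 and 9.12 in P2, a difference of -2.22 that did not pass (adjusted p = 0.057). Outside the lists, Ly6a2, of the Ly6 family, was 11.0-fold lower, Serpinb10, a protease inhibitor, 7.54-fold lower, and Gsr, glutathione reductase, 4.52-fold lower. Plcb1, a phospholipase C, was among the most even, at 6.47 to 6.80 in P1 and 4.05 to 4.24 in P2 (5.88-fold lower, adjusted p = 1.1e-11).

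Pattern recognition receptors were lower at 5 of 23 members and higher at 0 (median difference -0.16). Tlr13, a sensor of bacterial ribosomal RNA, read 9.83, 9.28 and 9.46 in P1 and 7.70, 7.11 and 6.06 in P2 (5.94-fold lower, adjusted p = 0.0014). Trem3 was 4.53-fold lower and its neighbour Trem1, an amplifier of inflammatory signals, 3.66-fold lower, with P2 replicate 3 the lowest array for Trem1 at 6.33. Trem1 lost its call without that array (adjusted p = 0.096) and without P1 replicate 1. Nod1 and Tlr6 were 3.06-fold and 2.14-fold lower, calls lost in 3 and 5 of the 6 fits without 1 array (adjusted p up to 0.086, without P2 replicate 3, and 0.18, without P1 replicate 3). The list's count was 2 without P1 replicate 1 or P2 replicate 3. Interferon-response genes showed a small shift, with 3 of 29 lower, 0 higher and a median difference of -0.37. The 3, Zbp1, Oas3 and Trim30a, were 1.88-fold to 2.46-fold lower, and none was called without P2 replicate 3.

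Receptors for migration and adhesion split by gene. Of 25 chemokine and sphingosine-1-phosphate receptors, Ccr7 was higher, and Cx3cr1 and S1pr5 were lower. S1pr5, used by patrolling monocytes to leave the marrow, was 2.01-fold lower and lost its call in 4 of the 6 fits without 1 array (adjusted p up to 0.21, without P2 replicate 1). Of 22 integrins and adhesion molecules, Itgax and Icam1 were higher and Itgal and Itga4 lower. Itga4, a subunit of VLA-4, read 10.06, 9.85 and 9.51 in P1 and 8.89, 8.79 and 8.29 in P2 (2.22-fold lower), a call lost without P2 replicate 3 (adjusted p = 0.08) and without P1 replicate 1. Among 11 Fc receptors Fcrls was higher and Fcgr4, the receptor of non-classical monocytes, 3.21-fold lower. Fcgr4 lost its call in 4 of the 6 fits (adjusted p up to 0.25, without P2 replicate 3). Fcer1g, the shared signalling chain, stayed bright at 12.16 to 12.43 in all 6 arrays.

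Of 40 transcription factors 3 were higher and 2 lower. Beside Irf4 and Irf8, Egr2 read 8.60, 8.34 and 8.47 in P1 and 9.58, 9.68 and 10.23 in P2 (2.57-fold, adjusted p = 0.0021). Rbpj, the nuclear effector of Notch, was 1.60-fold higher and Hif1a, the hypoxia factor, 1.90-fold lower. The calls of Rbpj and Hif1a were each lost in 3 of the 6 fits without 1 array (adjusted p up to 0.078, without P2 replicate 3, and 0.089, without P2 replicate 2), and that of Rbpj also with the mean of all probe sets (adjusted p = 0.63). Of 36 inflammatory mediators 6 were higher and 0 lower: the type 2 chemokines already named, and Cxcl16, Il10 and Cxcl9. Cxcl16, a membrane-bound chemokine, read 8.82, 8.20 and 9.07 and then 10.07, 9.91 and 10.11 (2.52-fold, adjusted p = 0.0049). Il10 was 2.69-fold higher and Cxcl9 4.33-fold, calls lost in 4 and 5 of the 6 fits (adjusted p up to 0.11, without P2 replicate 1, and 0.28, without P1 replicate 3). Of 23 growth factor and cytokine receptors Flt3 and Csf2rb2 were higher. Csf2rb2, a signalling chain for IL-3, was 2.25-fold higher and lost its call in 4 of the 6 fits (adjusted p up to 0.26, without P1 replicate 2). The classical inflammatory cytokines were bright in both gates and not called. Il1b differed by 0.35 from a P1 level of 10.85 to 11.18, Tnf by 0.49 from 10.06 to 10.45, and Il6 by -0.10 from 8.12 to 8.96. The lists of glycolysis and hypoxia (22 genes), cholesterol synthesis (17) and lipid mediator enzymes (14) had 0 called members in limma's test, with 3, 1 and 2 members at an unadjusted p under 0.05 and medians of -0.09, -0.05 and 0.27. Of 21 immediate early and dissociation genes Egr2 was the one called, with a median of 0.16.

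Markers of other cells were read in the same arrays, and their part in the differences above was not tested. Keratinocyte markers leaned toward P2, with 13 of 14 differences above 0 and a median difference of 0.53, while 0 of 14 were called in limma (4 at an unadjusted p under 0.05). The mean level of that list was 6.55, 7.43 and 7.24 in P1 and 7.19, 7.72 and 7.88 in P2, against 4.41 in blood monocytes. Krt5, a basal keratinocyte keratin, reached 9.20 to 10.15 in P1 and 9.91 to 10.99 in P2. Fibroblast markers had 0 of 13 called (1 at an unadjusted p under 0.05), with list means of 6.54, 9.97 and 7.20 in P1 and 7.94, 8.24 and 7.94 in P2. Without P1 replicate 2, the array rich in fibroblast RNA, 4 of the 13 were called higher in P2: Mfap5, Lum, Postn and Col3a1. In the same fit the rises numbered 357 and the falls 132, and with the keratinocyte and fibroblast means as covariates 585 genes were called. No member of the endothelial (13), B cell (11), mast cell, basophil and eosinophil (17) or cDC1 and Langerhans cell (11) lists passed limma's test, and 0, 1, 0 and 2 of them had an unadjusted p under 0.05. On the plasmacytoid DC list Irf8 was the one called of 9, and on the erythroid and platelet list Pf4 of 7.

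Several lymphocyte-associated receptors were higher in P2. The mean level of the T cell and innate lymphoid list was 4.63, 4.44 and 4.77 in P1 and 5.10, 4.96 and 5.28 in P2, with a median difference of 0.20 and 12 of 16 differences above 0. The mean of the NK list was 4.20, 3.91 and 4.18 in P1 and 4.35, 4.44 and 4.43 in P2. On both lists the P2 arrays lay above the P1 arrays, and the part of such cells in the results was not tested. Il7r read 6.82, 6.40 and 5.34 in P1 and 9.08, 9.23 and 9.49 in P2 (8.44-fold, adjusted p = 1.1e-07). Cd2, an adhesion receptor, read 4.36, 3.93 and 4.78 and then 7.14, 6.14 and 7.55 (6.01-fold). Klrd1 (CD94), an NK receptor subunit, read 5.69, 4.71 and 5.37 and then 8.62, 7.73 and 8.31 (7.79-fold). Klrb1b was 15.1-fold higher and Klrk1 2.84-fold. In each case the P2 arrays all lay above the P1 arrays. By mean level, each of these genes stood higher still in dermal DC at steady state. Il7r was at 10.29 there against 9.27 in P2, Cd2 at 8.19 against 6.94 and Klrd1 at 9.08 against 8.22. Klrb1b was at 10.80 against 8.31 and Klrk1 at 8.57 against 7.39. Gata3, named below, went the other way, at 5.00 in dermal DC against 6.29 in P2. Among defining genes, picked after their values were seen, Cd3d stood between 2.95 and 3.44 in the 6 arrays, and Ncr1, Klrb1c and Eomes between 2.68 and 3.79, all in the range of low signal. Cd3e lay above that range, between 4.85 and 6.03, and overlapped between the gates. The T cell and innate lymphoid list had 3 of 16 higher, the third being Gata3 at 2.70-fold, lost in 4 of the 6 fits without 1 array (adjusted p up to 0.18, without P2 replicate 3). The NK list had 2 of 12 higher. The neutrophil list had 1 of 15 called, Cd177, and S100a8 overlapped between the gates.

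Levels in the other steady-state populations place P1 and P2 among them. They are given as levels only, since P1 and P2 are the same arrays throughout. Treml4 and Hp, which fell, were high in blood monocytes and low in P3, the Ly6C-low MHCII+ gate. Treml4 stood at 9.98 ± 0.32 in blood, 8.60 ± 0.57 in P1, 4.49 ± 0.64 in P2 and 3.57 ± 0.38 in P3 (SD, n = 3 each). Hp stood at 11.21 ± 0.10, 10.63 ± 0.15, 7.56 ± 0.50 and 4.00 ± 0.14 in the same order. P2 thus lay near the P3 level for Treml4 and between P1 and P3 for Hp. Retnla stood at 3.25 ± 0.23 in blood, 4.04 ± 0.93 in P1, 10.63 ± 0.39 in P2 and 10.83 ± 0.02 in P3, so that P2 and P3 were within 1 SD of P2. C1qa stood at 5.03 ± 0.11, 5.88 ± 0.22, 9.15 ± 0.89 and 11.08 ± 0.17, with P2 in between. Cx3cr1 did not follow a line, at 7.31 ± 0.07 in P2 and 9.01 ± 0.33 in the MHCII+ macrophages (P5). Ccl17 was high in every MHCII+ dermal gate and at 4.94 ± 0.88 in the MHCII- macrophages (P4), while Retnla was at 10.86 ± 0.02 there. Itgax was at 9.11 ± 0.37 in dermal DC, 7.70 ± 0.27 in P2 and 5.28 ± 0.21 in P1.

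**Figure D4:**
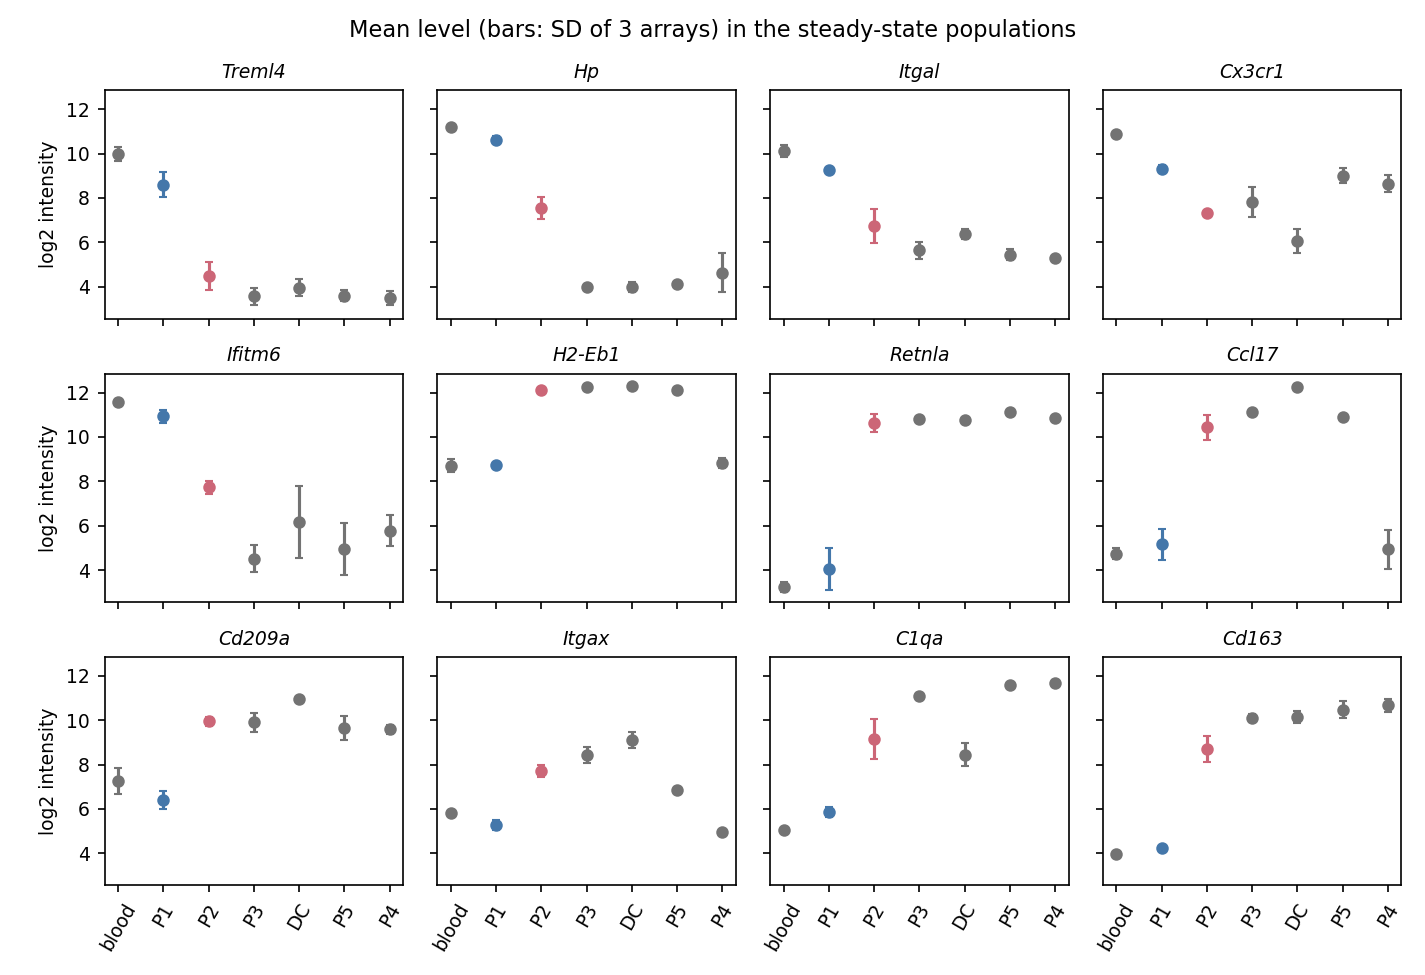
Mean level (vertical axis, log2 intensity, bars the SD of 3 arrays) of 12 genes in blood monocytes, the dermal gates P1, P2 and P3, dermal DC and the dermal macrophage gates P5 and P4 at steady state, with P1 in blue and P2 in red. Treml4 and Hp step down from blood to P3, and Retnla stands near 4 in P1 and above 10 in each of the other dermal gates.

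The same gates after DNFB, on 5 arrays that the steady-state comparison did not use, differed in the same direction at most of these genes. There 57 genes were higher in P2 (0.286% of genes) and 65 lower (0.326%). Of the 268 genes higher at steady state, 228 had a difference above 0 after DNFB, where 51.9% of all genes did, and 39 were called higher, 14.6% of the steady-state rises and 68.4% of the DNFB rises. Of the 148 lower at steady state, 128 had a difference below 0 and 36 were called lower, 24.3% and 55.4% of the respective falls. No gene was called in opposite directions. The median difference of the steady-state rises was 1.26 at steady state, where they were selected, and 0.44 after DNFB, and that of the falls -1.17 and -0.63. As the genes were selected at steady state, these medians do not compare sizes between the conditions. The 57 genes called higher after DNFB had a median of 1.75 there and 1.63 at steady state, and the 65 called lower had -1.49 and -1.03. Leaving out P1 replicate 1 of the DNFB arrays lowered the shared calls to 18 rises and 17 falls, and leaving out P1 replicate 2 of them lowered the shared falls to 20. Without P2 replicate 2 of the DNFB arrays 22 shared falls were called. Mgl2 kept much of its size, at 3.72 and 3.75 in P1 and 8.90, 8.14 and 8.64 in P2 after DNFB (log2 difference 4.82, SE 0.39). H2-Eb1 differed by 2.64 there, Cd163 by 3.02, Treml4 by -2.10 and Itgal by -2.20, all called.

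The difference itself changed between the conditions at 11 genes (0.0552%), 10 of them also called at steady state and each with the larger rise at steady state. Ccl17 read 4.93 and 4.73 in P1 and 6.19, 5.87 and 6.29 in P2 after DNFB, so that its log2 difference was 1.29 there and 5.28 at steady state (change between them 3.98, SE 0.46, adjusted p = 3.2e-05). Itgax read 5.92 and 5.60 and then 6.26, 5.78 and 6.29 after DNFB, a difference of 0.35 against 2.42 (adjusted p of the change 0.0013). For both, the P2 arrays after DNFB sat well below those at steady state. Slc27a3, a fatty acid transport protein, differed by 2.80 at steady state and 0.11 after DNFB (adjusted p of the change 0.0014), and Tmem176b, a membrane protein of immature DC, by 1.19 and 0.10 (adjusted p 0.0020). Retnla, at 4.13 and 3.67 in P1 and 6.02, 6.65 and 8.19 in P2, differed by 3.06 against 6.59 (adjusted p of the change 0.033). Top2a differed by 0.20 against 2.24 (adjusted p 0.026). The changes of Ccl17, Slc27a3 and Itgax were called in all 11 fits that left out 1 array. That of Retnla was lost in 7 of them (adjusted p up to 0.29), that of Top2a in 5 (up to 0.15) and that of Tmem176b in 1 (0.060), the highest value in each case without P1 replicate 1 of the DNFB arrays. The 11 genes became 67 without steady-state P1 replicate 2 and 4 without that DNFB array.

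**Figure D5:**
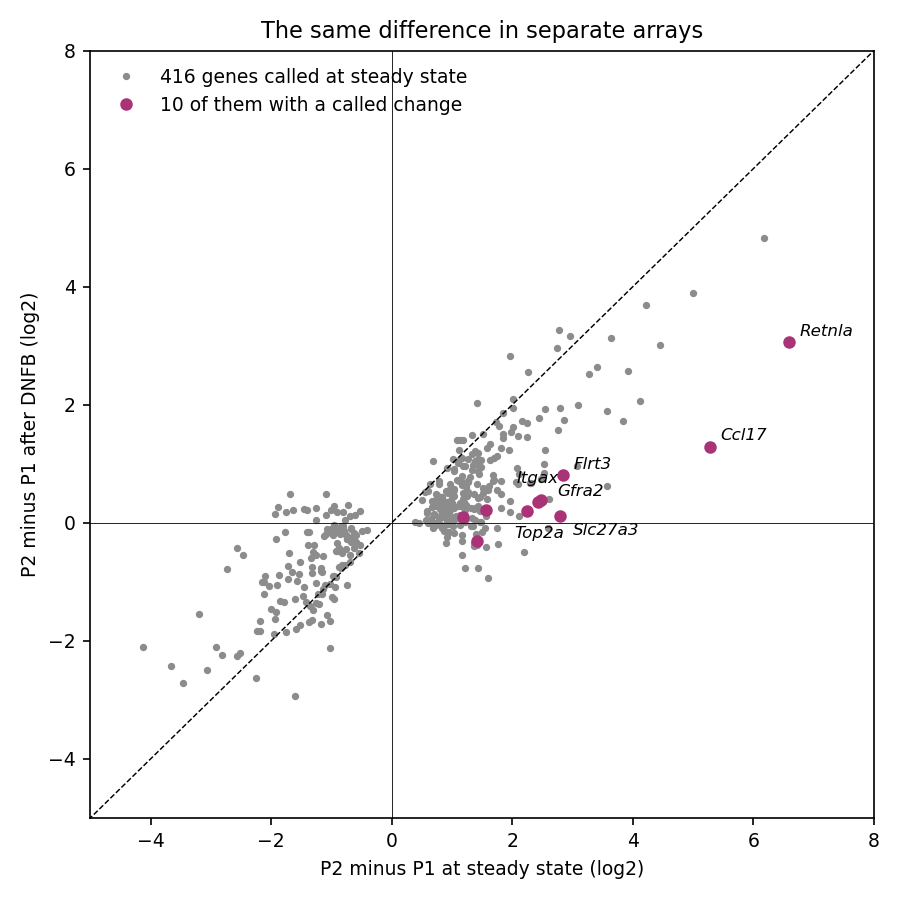
P2 minus P1 after DNFB (vertical axis, log2) against P2 minus P1 at steady state (horizontal axis, log2) for the 416 genes called at steady state, with 1 point per gene and a dashed line where both are equal. The 10 purple genes have a called change between conditions, and all 10 lie to the right of the line.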

How the data were processed

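RNA of sorted cells was measured on Affymetrix Mouse Gene 1.0 ST arrays after amplification of a few nanograms, per the labels' protocols. Each deposited value is a log2 intensity of a probe set. The submitters' processing notes name RMA and affy as the authors' tools, and their versions are not given in the sources used here. No further scaling was applied. Groups were taken from titles and replicates were not pooled. Chip batches are described without a map to arrays, so no batch term could be fitted.

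Of 34760 probe sets, 21640 had 1 gene symbol, 1321 several (left out, Ly6C genes among them) and 11799 none, and 21553 matched a RefSeq gene. For 954 genes the probe set with the highest mean was kept, leaving 19937 genes. A mean per group was fitted over all 38 arrays in limma 3.58.1 (R 4.3.3) with moderated t statistics (25 residual and 3.13 prior degrees of freedom), Benjamini-Hochberg adjustment over all genes and a threshold of 0.05. The change between conditions is the contrast of both differences. A permutation of 3 against 3 arrays cannot go below p = 0.10, so the call rests on variance pooled over groups. The number of arrays limits the precision. Plots used matplotlib 3.10.9 under Python 3.11.15.

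Named genes are the 20 largest rises and falls with non-overlapping arrays, up to 6 members per list by adjusted p, the sort markers, and up to 5 genes with a called change between conditions. Others, such as Chil3, Plac8, Arg1, Cd3d and the Cd209 family members, were chosen after their values were seen. The members and the 36 gene lists were chosen with earlier results of these data known. The fit was checked on simulated data with known answers. It called 69 of 100 genes set to change 2-fold, 98 of 100 set to change 4-fold and 16 of 19737 unchanged genes. Each gene had the same spread in all groups there, so the check cannot show whether pooling the variance over groups holds for the real arrays. Alternatives covered normalization, probe choice, low values, variance models, covariates, the replicate number as a block, and leaving out each array.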

Additional observations from a re-analysis of the deposited data

Results flagged for a closer look

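At 11 genes the signed difference P2 minus P1 was higher at steady state than after DNFB by a test of the change itself in limma. In log2 units the steady-state difference exceeded the DNFB one by 3.98 for Ccl17, 3.54 for Retnla and 2.70 for Slc27a3. The excess was 2.32 for Fn3krp, which differed by 0.95 at steady state, not called, and by -1.37 after DNFB, called, so that its DNFB difference is the larger in size. It was 2.09 for Gfra2, a receptor of the GDNF family, 2.07 for Itgax, 2.04 for Top2a and 2.03 for Flrt3, an adhesion molecule. Jup (plakoglobin) had 1.72, Mpp6 1.35 and Tmem176b 1.09. P1 after DNFB has 2 arrays.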

How the results depend on the processing

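The 416 genes called at steady state became 62 when only the compared groups were fitted and 41 when a change of at least 2-fold was tested, and lay between 286 and 489 when 1 array was left out. After DNFB the 122 calls became 22 and 14 under the first 2 settings and 45 to 198 without 1 array, with 45 without P1 replicate 1, 72 without P2 replicate 2 and 198 without P2 replicate 1. The 11 called changes between conditions became 1 under each of those settings, 83 with keratinocyte and fibroblast means as covariates, and 4 to 67 without 1 array. With the replicate number as a block the 3 counts were 423, 113 and 10. The block changed no call among the 117 named genes that were called at steady state. Same-numbered arrays of P1 and P2 correlated at 0.0309, -0.0267 and 0.205 after group means were removed, and not every array correlated best with its own number. At steady state, same-numbered arrays of both gates also carry the same source number in their labels. Correlations from so few arrays cannot decide whether these arrays are paired. With the source number as a random block the 3 counts were 420, 126 and 11. Over the remaining settings without an array left out, the steady-state count ran from 298 with array weights to 585 with the covariates. None of these 117 called genes changed sign in any setting, and named genes that were not called were left out of this check. Without 1 array, 17 to 34 of the 117 lost their call, the most without P2 replicate 3. The call was lost by 72 when only the compared groups were fitted, by 80 when a 2-fold change was tested and by 21 with array weights. The cause of these shifts was not tested. Fits of the compared groups alone use fewer arrays and also take the variance from those groups only, and the 2 were not separated. Low signal limits folds that start near a level of 4.02: 16 of the rises had a P1 mean under it and 13 of the falls a P2 mean.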

Other observations

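Called genes that follow each other in chromosome order were listed, with no limit on the distance between them. Among 19915 genes placed in order by RefSeq, 24 pairs of adjacent tested genes were both called, 23 in the same direction and 1, Dglucy and Ccdc88c, in opposite ones. They include gene families named in the report (H2-Ob, H2-Ab1, H2-Aa and H2-Eb1, C1qb, C1qc and C1qa, Mgl2 and Clec10a, Trem1, Trem3, Treml4 and Treml2, Ly6i and Ly6a2, Klrd1 and Klrk1). Pairs of unlike genes were among them too, such as Abi3 and Gngt2, with log2 differences of -2.16 and -1.54, and Dok2 and Gfra2, with 1.77 and 2.47. The share of all adjacent tested pairs that moved together was not computed. With 268 rises and 148 falls among the called genes, pairs can also agree without being neighbours. Probe sets of similar neighbours may share RNA, which was not tested.

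Genes outside the lists rose as well. Plau, the urokinase plasminogen activator, read 6.48, 7.05 and 6.95 in P1 and 9.17, 8.81 and 8.37 in P2 (3.88-fold, adjusted p = 0.00026 in limma). Edn1, the vasoconstrictor endothelin, read 4.43, 4.27 and 5.09 and then 7.01, 6.19 and 7.45 (4.88-fold, adjusted p = 0.0022). Flrt3 was 7.14-fold higher, Shtn1 8.57-fold and Slamf9, a receptor of the SLAM family, 7.28-fold. Tmem176a, adjacent to Tmem176b, was 4.27-fold higher. These genes were chosen after their values were seen, apart from Flrt3, Shtn1 and Slamf9.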
